A study of Homo sapiens with 12 samples.

Results

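Transcripts of 57 genes that make, modify or cut tRNA were followed in 293T cells, a human embryonic kidney line, after a tRNA gene or a hairpin for a tRNA-derived small RNA had been added. The members were chosen by name for their step in tRNA maturation, and a member counted as measured where the array annotation gave a probe set (a group of short probes for 1 transcript) that symbol alone. By this rule 54 of 57 members were measured, of 19775 genes with such a probe set on the array, and all 54 passed the filter on dim probe sets that 13952 genes passed. RPP21, TRMT12 and CTU1 had no such probe set and are not analysed here. The groups held 4 biological replicates each, on 12 arrays in all, and a replicate is called below by its number in the sample labels. In the hairpin group the plasmid carried an artificial CU1276 hairpin. In the tRNA group it carried the human gene chr1.tRNA68-Gly(GCC), whose transcript the labels describe as the source of mature CU1276. In the empty group the plasmid was the control without insert. In every group the plasmid had been introduced transiently with PEI, polyethylenimine, and total RNA had been taken 48 hours later from whole cultures. The share of cells that took up plasmid, the promoter of each insert and the level of CU1276 or of the tRNA are not given in the sources used here. In such cultures fewer cells of a kind and less RNA per cell cannot be told apart.

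A tRNA is transcribed as a precursor with extra sequence at both ends. RNase P cuts the leader from the 5′ end, RNase Z cuts the trailer from the 3′ end, and a nucleotidyltransferase adds the bases CCA to which the amino acid is later joined. Some precursors carry an intron in the anticodon loop, which an endonuclease removes and a ligase closes. Many bases are then methylated, isomerised, reduced, thiolated or replaced, most densely in the anticodon loop, where the changes tune decoding. Mature tRNAs can be cut again into fragments, for instance in the anticodon loop by the secreted ribonuclease angiogenin. CU1276 is a fragment of another kind, of the size of a microRNA. The arrays measured messenger RNA of the enzymes of these steps, and neither the tRNAs nor their fragments.

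Signals are MAS5 intensities on a linear scale, and each array had a 2% trimmed mean of 500.1. A member is represented by its brightest probe set, differences are log2 fold changes of the first-named vector over the second with their limma standard error, and ± after a signal is the SD of 4 arrays. Of markers for a 293T line, VIM, KRT8, KRT18, NEFL, NEFM, PAX2 and CDH2 passed the filter, and LHX1 did not, with a mean signal of 40.5. Of the B cell markers 2 of 4 on the array passed, CD79A at a mean signal of 85.5 and CD79B at 65.2, while MS4A1 and PTPRC did not. Of the T cell and myeloid markers 1 of 5 passed, CD3D at 64.6, while CD3E, CD2, CD14 and LYZ did not. Of the fibroblast and endothelium list, 4 of 5 passed, led by COL1A1 at a mean of 815. Array medians ran from 75.9 to 104, and the median signal of the 54 members in an array from 1566 to 1797. Over all genes 0 of 32768 tested probe sets passed limma's adjusted p under 0.05 in any of the 3 comparisons of vectors. With the replicate number as a block in limma, 6 probe sets passed for the hairpin against the tRNA vector, with 0 of the 54 members past it.

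No member transcript passed the test between vectors, and most members stayed close to equal signal. With the hairpin vector against the empty vector, the median log2 fold change of the 54 members was 0.010, with 30 above 0 and 24 below. With the tRNA vector against the empty vector it was 0.019, with 32 above and 22 below, and between the hairpin and the tRNA vector it was -0.027, with 22 above and 32 below. The same medians over all 13952 genes were 0.0042, 0.0030 and 0.0028, with 51.2%, 50.7% and 50.6% of genes above 0. The members ran from -0.31 (ELAC1) to 0.39 (DUS2), from -0.34 (PRORP) to 0.41 (ANG), and from -0.34 (POP5) to 0.29 (TRDMT1) in these comparisons.

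The intervals describe the precision of each fold change in whole cultures, for the brightest probe set and without adjustment over the members. They come from the fit without the replicate number, and standard errors differed with the number as a block. For the hairpin against the empty vector they were 0.072 with the block and 0.113 without for POP5. They were 0.060 and 0.134 for TRMT10C, and 0.125 and 0.123 for ADAT2. With the hairpin vector against the empty vector the 95% interval of the fold change lay inside 1.25-fold either way for 28 of 54 members, inside 1.5-fold for 46 and inside 2-fold for 53. The exception to the last was CDKAL1, which helps to thiomethylate a base next to the anticodon, at 0.26 ± 0.35. For the tRNA vector against the empty vector the counts were 31, 44 and 54, and between the hairpin and the tRNA vector 26, 45 and 54. Such an interval had a median width of 0.244 to either side on the log2 scale, and 53, 54 and 53 of the 54 included 0. With the replicate block 2, 3 and 4 members had an unadjusted limma p under 0.05, where 5.85%, 9.12% and 9.37% of all genes did.

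**Figure D1:**
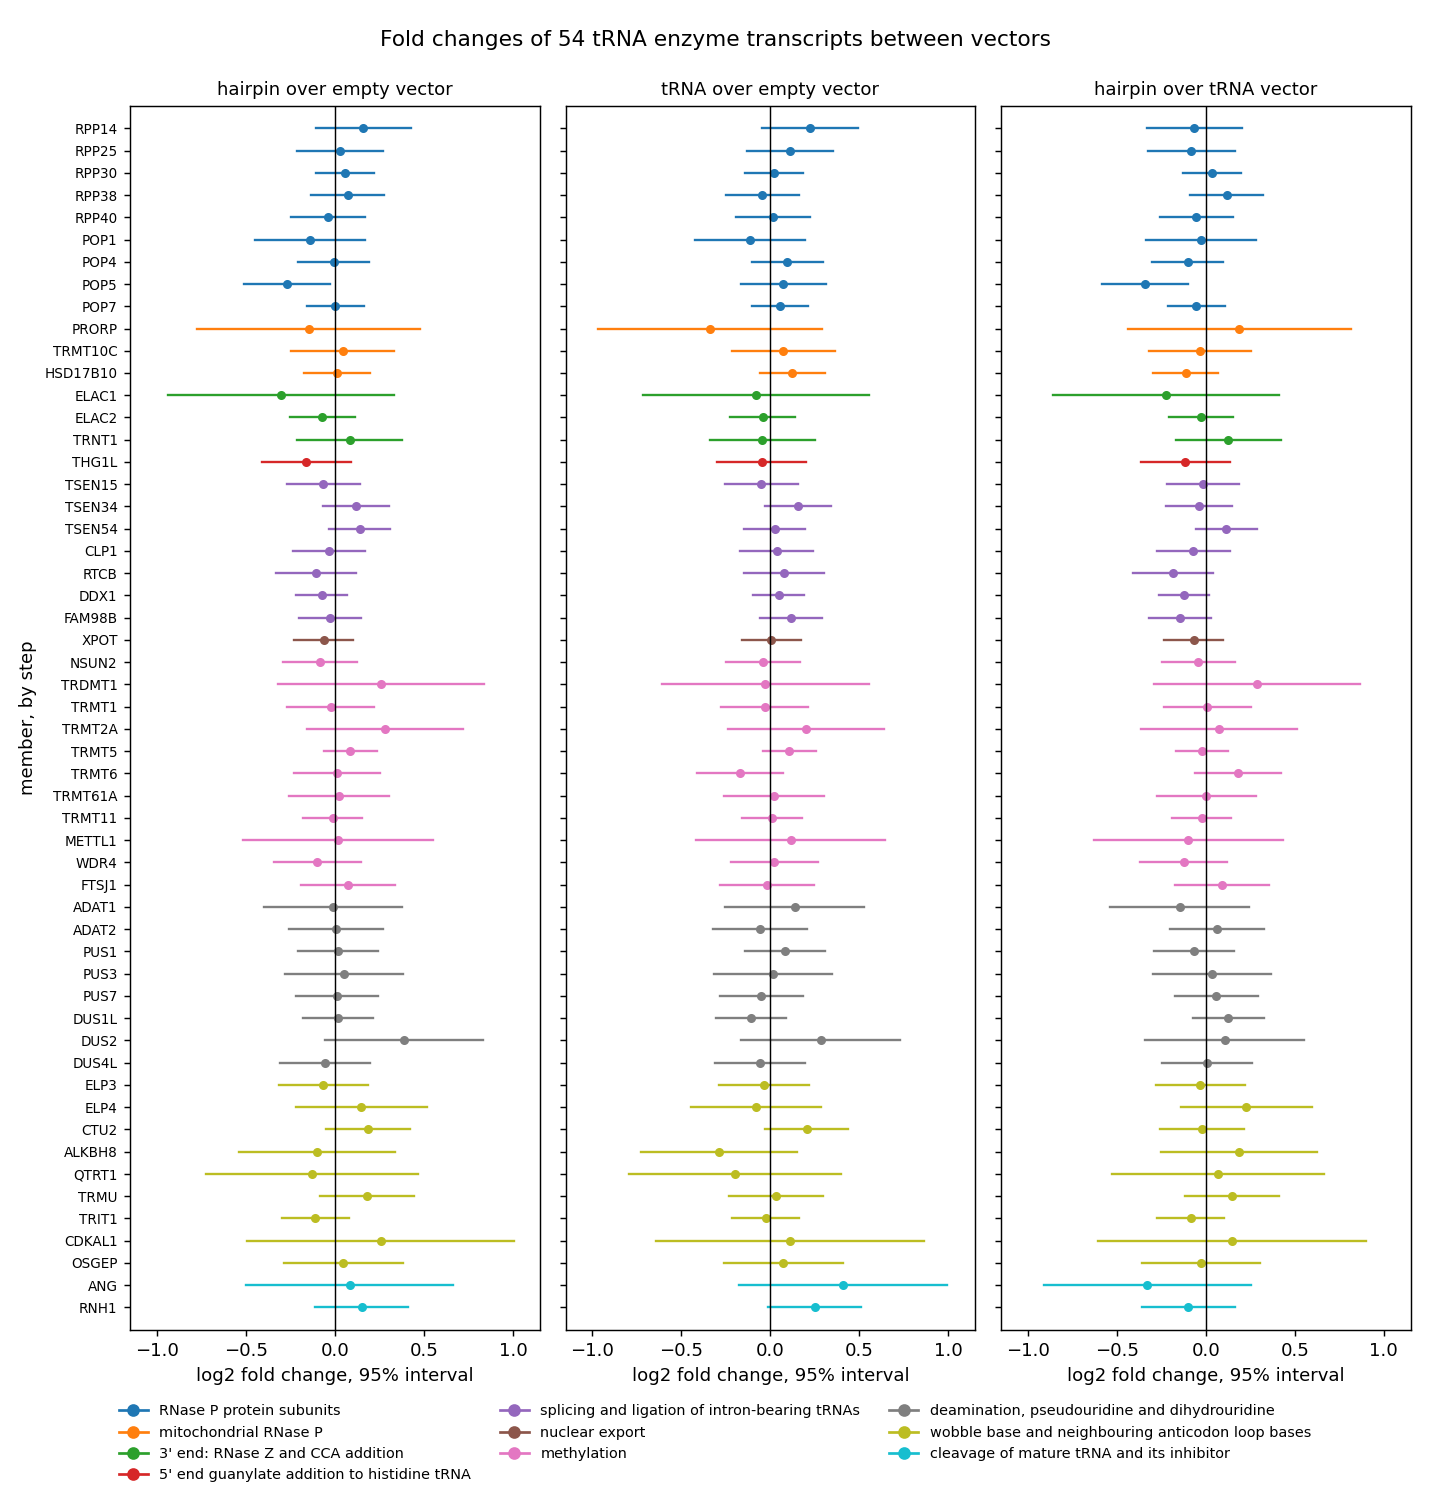
Log2 fold changes of the 54 measured members in the 3 comparisons of vectors (horizontal axis), grouped by step from top to bottom, with limma 95% intervals as lines (4 arrays per vector). The intervals are from the fit without the replicate number. Nearly all lines cross 0; the line of POP5 lies below 0 for the hairpin vector against the empty and against the tRNA vector.

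Nuclear RNase P is a catalytic RNA with a shell of protein subunits, several of which it shares with RNase MRP, an enzyme of ribosomal RNA processing. Of its 10 proteins, 9 were measured. Comparing the hairpin with the empty vector, 5 had a log2 fold change above 0 and 4 below, with a median of 0.0014. The tRNA against the empty vector gave 7 above and 2 below, with a median of 0.054. The hairpin against the tRNA vector gave 2 above and 7 below, with a median of -0.054.

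POP5, a small subunit of both enzymes, had the smallest p of all members. Its signals in replicates 1 to 4 were 4102, 3224, 3348 and 3184 in hairpin arrays, 5216, 3826, 4557 and 4009 in tRNA arrays and 4569.7, 4394, 3770.2 and 3932 in empty arrays. Replicate 1 was the highest of each group, and the groups overlapped through hairpin replicate 1. Leaving that replicate aside, the hairpin arrays lay below all 8 arrays of the other vectors. The log2 fold change was -0.27 ± 0.11 against the empty vector, a fold of 0.83 (95% interval 0.702 to 0.98), and -0.34 ± 0.11 against the tRNA vector, a fold of 0.789 (0.667 to 0.932). The tRNA vector and the empty vector differed by 0.073 ± 0.11. In both comparisons of the hairpin vector POP5 was lower in 4 of 4 same-number pairs, and its exact two-sided permutation p was 0.0857 in each. The share of all genes with 1 direction in 4 of 4 pairs was not counted. Such pairs are given here and below as descriptions, and not for every member that had them. After adjustment over all probe sets limma gave 0.9999 against the empty vector and 0.9997 against the tRNA vector. Adjusted p was 0.833 and 0.202 with the replicate number as a block in limma, so the difference did not pass in either fit.

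The gene of POP5 lies at chr12:120578764-120581402 in GRCh38.p14. The 250 bases before its start (chr12:120581403-120581652, minus strand, RefSeq) are shown because POP5 had the smallest p of the members in the comparisons of vectors. Capitals mark GGGCGG (the GC box) and CCAAT, each found on either strand, so that CCGCCC and ATTGG are their reverse forms.
POP5: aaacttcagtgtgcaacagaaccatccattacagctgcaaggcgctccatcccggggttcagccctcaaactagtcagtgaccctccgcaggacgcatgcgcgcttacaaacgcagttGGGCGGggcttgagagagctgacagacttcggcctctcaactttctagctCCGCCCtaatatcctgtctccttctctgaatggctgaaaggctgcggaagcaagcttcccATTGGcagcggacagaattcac
The window holds a GC box on each strand and a CCAAT on the reverse strand.

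By limma's unadjusted test POP5 was the only member under 0.05 for the hairpin against the empty vector (unadjusted limma p = 0.0308, exact permutation p = 0.0857). This is 1 of 54 members, where 2.74% of all 13952 genes were under 0.05. With the replicate block there were 2, POP5 and DUS2, where 5.85% of genes were. The count was 2 without empty replicate 1 or without hairpin replicate 1 (3.55% and 3.63% of genes), and 0 without hairpin replicate 2, 3 or 4 (2.63% to 2.71% of genes). Between the hairpin and the tRNA vector POP5 was again the only one (unadjusted limma p = 0.00855, exact permutation p = 0.0857), 1 of 54 members, where 4.56% of genes were. With the block there were 4, where 9.37% were, namely POP5, the ligase subunits RTCB and DDX1, and ELP4. This count was 3 without hairpin replicate 1 or tRNA replicate 4 (4.67% and 4.64% of genes), and 2 without tRNA replicate 1 (5.78%). With all 12 arrays, the share of members was in neither comparison above that of all genes.

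RPP14, another RNase P subunit, averaged 2247 ± 251 in hairpin arrays, 2337 ± 30.2 in tRNA arrays and 2032 ± 404 in empty arrays, with log2 fold changes of 0.16 ± 0.12 and 0.22 ± 0.12 against the empty vector. The empty arrays (1598 to 2556) enclosed those of the tRNA vector (2300.2 to 2366). RPP25, RPP30, RPP38, RPP40, POP1, POP4 and POP7 lay between -0.14 and 0.12 in all 3 comparisons.

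Mitochondria use a protein-only RNase P of 3 proteins. TRMT10C, which also methylates mitochondrial tRNAs, averaged 5709.8 ± 1072 in hairpin arrays, 5781 ± 586 in tRNA arrays and 5530.4 ± 904 in empty arrays. HSD17B10, a dehydrogenase that binds TRMT10C, averaged 5744 ± 576, 6198 ± 361 and 5695 ± 462 in the same order of vectors. PRORP, the nuclease, averaged 204 ± 38.4, 187 ± 67.3 and 230.3 ± 68.8. The log2 fold changes of TRMT10C were 0.042 ± 0.13 for the hairpin vector and 0.073 ± 0.13 for the tRNA vector, both against the empty vector. Those of HSD17B10 were 0.011 ± 0.086 and 0.12 ± 0.086, and those of PRORP -0.15 ± 0.29 and -0.34 ± 0.29. The groups overlapped for all 3 genes, and PRORP varied widely, with 95% intervals of -0.78 to 0.48 and -0.97 to 0.29.

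At the 3′ end, ELAC2, the RNase Z of nucleus and mitochondria, averaged 2609 ± 51.0 in hairpin arrays, 2662 ± 163 in tRNA arrays and 2751 ± 279.8 in empty arrays. The shorter RNase Z, ELAC1, averaged 120.2 ± 33.2, 141 ± 39.5 and 144 ± 17.5, and its replicate 2 was the lowest of each group. TRNT1, which adds CCA, averaged 1097 ± 168, 1006 ± 165 and 1033 ± 114. Against the empty vector the log2 fold changes were -0.071 ± 0.085 and -0.044 ± 0.085 for ELAC2 with the hairpin and the tRNA vector. They were -0.31 ± 0.30 and -0.081 ± 0.30 for ELAC1, and 0.082 ± 0.14 and -0.045 ± 0.14 for TRNT1. The other ELAC1 probe set gave 0.40 ± 0.49 and 0.38 ± 0.49, at mean signals of 73.7, 72.9 and 64.6 in hairpin, tRNA and empty arrays. TRNT1 was higher with the hairpin than with the tRNA vector in 4 of 4 same-number pairs, by 0.13 ± 0.14 (exact permutation p = 0.429). The other TRNT1 probe sets gave -0.18 ± 0.15 and 0.34 ± 0.83 there, the last at mean signals of 91.7 and 68.8 in hairpin and tRNA arrays. ELAC1 was lower in 4 of 4 pairs of that comparison, by -0.22 ± 0.30 (exact permutation p = 0.486).

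THG1L adds a guanylate to the 5′ end of histidine tRNA. Its signals were 646, 527, 554 and 609.8 in hairpin arrays, 680.3, 534, 669 and 649 in tRNA arrays and 675, 645, 619 and 669.5 in empty arrays. It was lower with the hairpin vector in 4 of 4 same-number pairs against each of the other vectors, by log2 fold changes of -0.16 ± 0.12 against the empty vector (exact permutation p = 0.0857) and -0.11 ± 0.12 against the tRNA vector (p = 0.257). The ranges overlapped.

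Introns are removed by the TSEN endonuclease and the exons joined by a ligase built around RTCB. Of the 7 members of this step, 2 had a log2 fold change above 0 and 5 below for the hairpin against the empty vector (median -0.034). The counts were 6 above and 1 below for the tRNA against the empty vector (median 0.045), and 1 above and 6 below for the hairpin against the tRNA vector (median -0.069). The comparisons share arrays, so these counts are not independent of each other, and 0 of the 7 had an unadjusted limma p under 0.05 in any of them.

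Only 2 members, both of this step, had groups that did not overlap in any comparison. TSEN34, a catalytic subunit of the endonuclease, gave 2301, 2258, 2306 and 2669 in tRNA arrays and 2079, 2168, 2226 and 2071 in empty arrays. FAM98B, a ligase subunit, gave 2348, 2356, 2452 and 2286 in tRNA arrays and 2062, 2216, 2283 and 2155 in empty arrays. In both the lowest tRNA array stood just above the highest empty array, while the hairpin arrays, 2077 to 2538 for TSEN34 and 1962 to 2338 for FAM98B, overlapped those of the tRNA and the empty vector. The log2 fold changes were 0.16 ± 0.086 for TSEN34 and 0.12 ± 0.081 for FAM98B, each with 0.0286 as its exact two-sided permutation p, the lowest that 4 arrays against 4 allow. Neither passed limma (adjusted p = 1 for both, unadjusted p = 0.0927 and 0.174), and the dimmer probe set of FAM98B stood at -0.01. They were 2 of 54 members, where 2.94% of all genes had groups that did not overlap in that comparison. For the other 2 comparisons the count of members was 0, where 2.33% of genes did not overlap between the hairpin and the empty vector and 3.24% between the hairpin and the tRNA vector.

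The ligase RTCB gave 5967, 5085, 5212 and 4985 in hairpin arrays, 7000.1, 6540.3, 5393 and 5320.2 in tRNA arrays and 6460.1, 5876, 5335 and 5253 in empty arrays. Within each number the hairpin array was the lowest and the tRNA array the highest, although the groups overlapped. Its log2 fold change was -0.18 ± 0.10 for the hairpin against the tRNA vector (unadjusted limma p = 0.0985, or 0.00796 with the replicate block) and -0.11 ± 0.10 for the hairpin against the empty vector (exact permutation p = 0.171 and 0.229). DDX1, the helicase of the ligase complex, averaged 8379.9 ± 348, 9125 ± 629 and 8827 ± 114 with the hairpin, tRNA and empty vectors. It too was lower with the hairpin vector in 4 of 4 pairs against each, by -0.12 ± 0.066 against the tRNA vector and -0.076 ± 0.066 against the empty vector. The exact permutation p of DDX1 was 0.114 and 0.0857 in these comparisons. FAM98B was lower with the hairpin than with the tRNA vector in 4 of 4 pairs, by -0.14 ± 0.081 (exact permutation p = 0.0571). Its other probe set went the other way there, at 0.088 ± 0.10, with mean signals of 1411 and 1328 in hairpin and tRNA arrays. With the replicate block the adjusted p of RTCB was 0.467 and that of DDX1 0.612 in limma for the hairpin against the tRNA vector. TSEN54, a structural subunit of the endonuclease, stood the other way, at 2933 ± 229 in hairpin arrays, 2705 ± 136 in tRNA arrays and 2662 ± 139.9 in empty arrays. Its log2 fold change was 0.14 ± 0.080 for the hairpin against the empty vector and 0.11 ± 0.080 against the tRNA vector, and its other probe sets gave -0.15 and 0.26 against the empty vector. TSEN15, another endonuclease subunit, and CLP1, an RNA kinase bound to it, lay between -0.069 and 0.035 in the 3 comparisons.

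XPOT, the exportin that carries tRNA to the cytoplasm, averaged 7504 ± 560.2 in hairpin arrays, 7854 ± 425 in tRNA arrays and 7838 ± 566 in empty arrays. Its log2 fold changes were -0.063 ± 0.077 for the hairpin and 0.0039 ± 0.077 for the tRNA vector against the empty vector, and the last sign turned with quantile normalization.

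**Figure D2:**
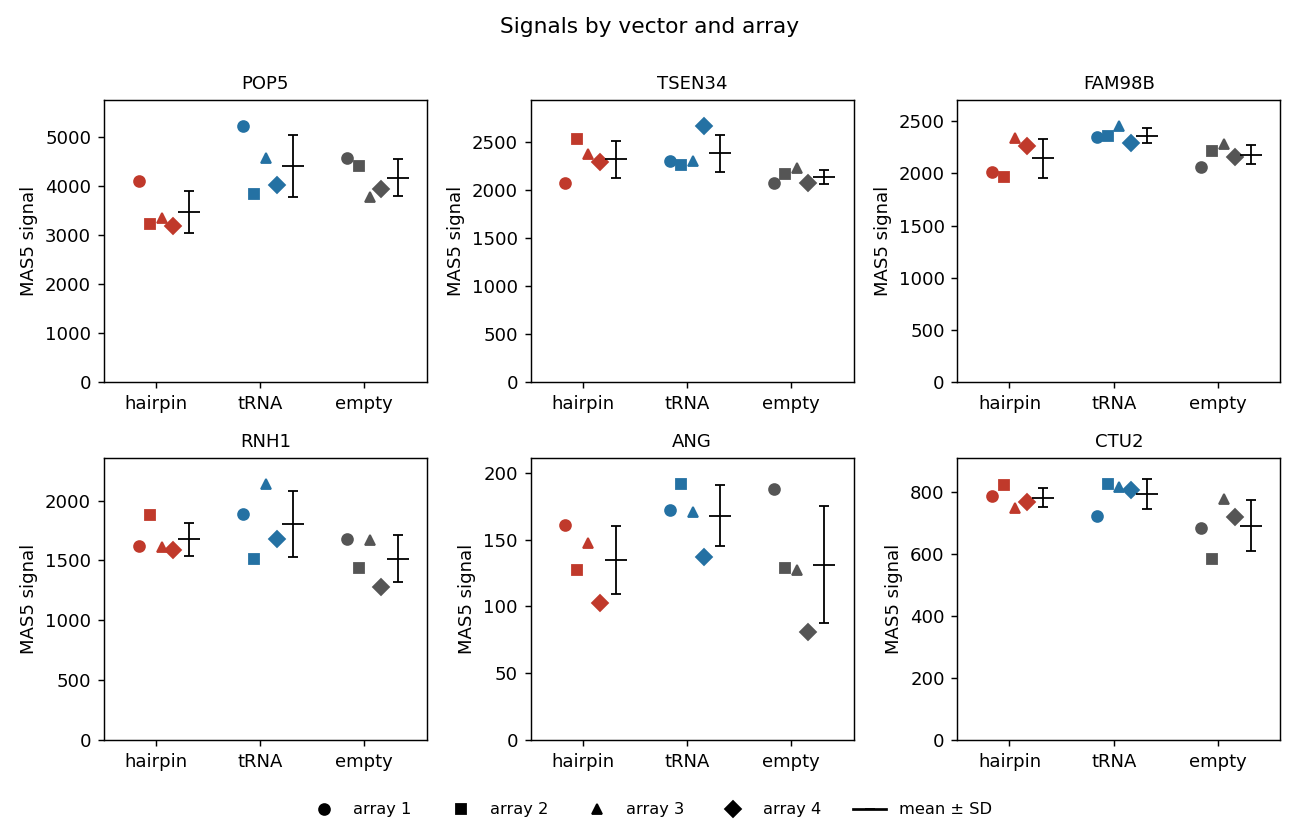
MAS5 signals of 6 members (vertical axes from 0) by vector, with 1 symbol shape per replicate number and the mean ± SD of 4 arrays beside them. For TSEN34 and FAM98B the 4 tRNA arrays lie above the 4 empty arrays, while the groups of POP5, RNH1, ANG and CTU2 overlap.

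Methyltransferases made up 11 of the measured members. Their medians were 0.016, 0.0090 and 0.0041 for the hairpin against the empty, the tRNA against the empty, and the hairpin against the tRNA vector, with 7, 6 and 6 of 11 above 0. TRMT6, which together with TRMT61A methylates adenine in the T loop, averaged 2244 ± 270.2 in hairpin arrays, 1982 ± 275 in tRNA arrays and 2221 ± 171 in empty arrays. It stood at -0.17 ± 0.11 for the tRNA against the empty vector and at 0.18 ± 0.11 for the hairpin against the tRNA vector. The other TRMT6 probe set gave 0.026 ± 0.38 and -0.31 ± 0.38 in these comparisons, each of the opposite sign. TRMT61A itself stood at 0.019 ± 0.13 and 0.0041 ± 0.13. METTL1 and WDR4, the catalytic and the structural part of the enzyme that methylates guanine in the variable loop, stood at 0.016 ± 0.25 and -0.10 ± 0.11 for the hairpin against the empty vector and at 0.11 ± 0.25 and 0.022 ± 0.11 for the tRNA against the empty vector. Of the cytosine methyltransferases, NSUN2 stood at -0.084 ± 0.096 and -0.042 ± 0.096 and TRDMT1 at 0.26 ± 0.27 and -0.029 ± 0.27 in the same 2 comparisons. TRMT1, TRMT2A, TRMT5, TRMT11 and FTSJ1 ran from -0.033 to 0.28 over the 3 comparisons.

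Deaminases, pseudouridine synthases and dihydrouridine synthases gave 8 measured members. Their medians were 0.013, -0.018 and 0.047 in the 3 comparisons, with 6, 4 and 6 of 8 above 0. DUS2, which reduces uridine in the D loop, had the highest log2 fold change of all members with the hairpin vector against the empty vector, at 0.39 ± 0.21 (exact permutation p = 0.171, unadjusted limma p = 0.0843, or 0.0441 with the replicate block). Its signals were 523, 538, 465 and 473 in hairpin arrays, 559, 372, 499 and 445 in tRNA arrays and 489, 496, 358 and 243 in empty arrays. Empty replicates 3 and 4 were the lowest of the 12 arrays, and the hairpin arrays lay on both sides of empty replicates 1 and 2. The dimmer DUS2 probe set stood at 0.10. DUS1L, a related enzyme, averaged 2824 ± 153, 2595 ± 294 and 2791 ± 178 with the hairpin, tRNA and empty vectors, with -0.11 ± 0.092 for the tRNA against the empty vector and 0.13 ± 0.092 for the hairpin against the tRNA vector. ADAT1 and ADAT2, which turn adenosine into inosine, PUS1, PUS3 and PUS7, which turn uridine into pseudouridine, and DUS4L lay between -0.15 and 0.14.

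Enzymes of the wobble base and its neighbours in the anticodon loop gave 9 measured members, with medians of 0.046, -0.027 and 0.070 and 5, 4 and 5 of 9 above 0. CTU2, part of the enzyme that thiolates the wobble uridine, gave 788, 822, 749.6 and 768 in hairpin arrays, 723, 828, 815 and 807 in tRNA arrays and 683, 584, 779 and 720.3 in empty arrays. It stood at 0.18 ± 0.11 with the hairpin and 0.20 ± 0.11 in tRNA arrays against the empty vector (exact permutation p = 0.0857 and 0.0571), with empty replicate 3 inside the ranges of the hairpin and tRNA arrays. Its other probe set gave -1.05 ± 0.54 and 0.03 ± 0.54, so that the 2 probe sets were opposed with the hairpin vector. That probe set was dim, at mean signals of 39.7, 79.2 and 73.9 in hairpin, tRNA and empty arrays. TRMU, which thiolates the wobble uridine in mitochondria, averaged 900.2 ± 82.2 in hairpin arrays, 813 ± 87.0 in tRNA arrays and 798 ± 101 in empty arrays. It was higher with the hairpin than with the empty vector in 4 of 4 same-number pairs, by 0.18 ± 0.12 (exact permutation p = 0.171).

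ALKBH8, which methylates side chains of the wobble uridine, gave 1041, 632, 635 and 638 in hairpin arrays, 734, 462, 638 and 733 in tRNA arrays and 1050.1, 652, 685 and 756 in empty arrays. It was lower with the tRNA than with the empty vector in 4 of 4 same-number pairs, by -0.29 ± 0.20 (exact permutation p = 0.314), with replicate 1 the highest of every group. Its other probe set stood at 0.03 ± 0.24 there. TRIT1, which adds an isopentenyl group next to the anticodon, averaged 2913 ± 145, 3098 ± 331 and 3149 ± 193 with the hairpin, tRNA and empty vectors. It was lower with the hairpin than with the empty vector in 4 of 4 pairs, by -0.11 ± 0.087 (exact permutation p = 0.114). ELP4, a subunit of the Elongator complex that starts wobble uridine modification, stood at 0.15 ± 0.17 for the hairpin and -0.081 ± 0.17 for the tRNA vector against the empty vector. Between the hairpin and the tRNA vector it stood at 0.23 ± 0.17 (exact permutation p = 0.314, unadjusted limma p = 0.204, or 0.0197 with the replicate block). ELP3, the catalytic subunit of Elongator, QTRT1, which inserts queuine, CDKAL1, and OSGEP, of the complex that adds threonylcarbamoyl to adenosine, ran from -0.20 to 0.26 over the 3 comparisons.

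Angiogenin, the product of ANG, cuts mature tRNA in the anticodon loop, and RNH1 encodes the inhibitor that binds it in the cytoplasm. ANG gave 161, 127, 148 and 103 in hairpin arrays, 172, 192, 171 and 137 in tRNA arrays and 188, 129, 127 and 80.7 in empty arrays. The empty arrays held both the lowest value of the 12 and 1 of the highest. ANG stood at 0.41 ± 0.27 for the tRNA against the empty vector (95% interval -0.17 to 0.99, exact permutation p = 0.229) and at 0.081 ± 0.27 for the hairpin against the empty vector. RNH1 gave 1619.6, 1880.0, 1616 and 1587 in hairpin arrays, 1891, 1513, 2142 and 1677 in tRNA arrays and 1676, 1433, 1674 and 1281 in empty arrays. It was higher with the tRNA than with the empty vector in 4 of 4 same-number pairs, by 0.25 ± 0.12 (unadjusted limma p = 0.0608, exact permutation p = 0.114), and stood at 0.15 ± 0.12 for the hairpin against the empty vector. This was the smallest unadjusted p of a member in the comparison of the tRNA with the empty vector, so 0 of 54 members had p under 0.05 there, where 4.26% of all genes did. The count was 3 without empty replicate 1 (4.76% of genes), 2 without empty replicate 3 or tRNA replicate 1 (4.47% and 5.69%), and 1 without tRNA replicate 2 (4.05%). With all 12 arrays and the replicate block it was 3, namely RNH1, ALKBH8 and TRMT5, where 9.12% of all genes were under 0.05. The dimmer RNH1 probe set stood at -0.40 ± 0.33 for the tRNA and -0.50 ± 0.33 for the hairpin vector against the empty vector. Its mean signals were 62.5, 67.0 and 90.1 in hairpin, tRNA and empty arrays. Neither gene passed after adjustment (limma adjusted p = 1 for both with the tRNA against the empty vector).

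Probe sets of the same member often differed in sign. Of the 54 members, 26 had more than 1 tested probe set, which gave 35 dimmer ones. These shared the sign of the brightest in 14 of 35 cases for the hairpin against the empty vector, 16 of 35 for the tRNA against the empty vector and 19 of 35 for the hairpin against the tRNA vector. The same share over all genes was not counted, and some dimmer probe sets, such as those of CTU2 and OSGEP, had signals near the filter.

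Outside the members, 54 of 59 other genes of tRNA maturation were measured, among them further genes of Elongator, of the OSGEP complex and of methyltransferases. With the hairpin vector against the empty vector 0 were higher and 2 lower at an unadjusted limma p under 0.05, namely TYW1, of wybutosine synthesis, at -0.19 ± 0.077, and BCDIN3D, a methyltransferase, at -0.29 ± 0.13. With the tRNA vector against the empty vector 0 were higher and 1 lower, THUMPD1, a partner of the acetyltransferase NAT10, at -0.44 ± 0.15. With the hairpin against the tRNA vector THUMPD1 was higher, at 0.35 ± 0.15, and TYW1 lower, at -0.17 ± 0.077. Of all 13952 genes 2.74%, 4.26% and 4.56% were under 0.05 in these 3 comparisons. TYW1, BCDIN3D and THUMPD1 did not pass after adjustment (smallest limma adjusted p = 0.9997 over the 3 comparisons). The fit with the replicate block is not given for these genes.

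Most members varied more by replicate number than by vector. Of the variance of a member over the 12 arrays, a median of 50.7% lay between replicate numbers and 12.0% between vectors, where equal shares per degree of freedom would give 27.3% and 18.2%. The share of the number was the larger in 43 of 54 members (79.6%). Over all 13952 genes the medians were 39.2% and 12.9%, and the number had the larger share in 76.5%. POP5 was among the exceptions, with 50.1% between vectors and 36.8% between numbers, while TRMT10C had 2.47% and 90.2%.

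**Figure D3:**
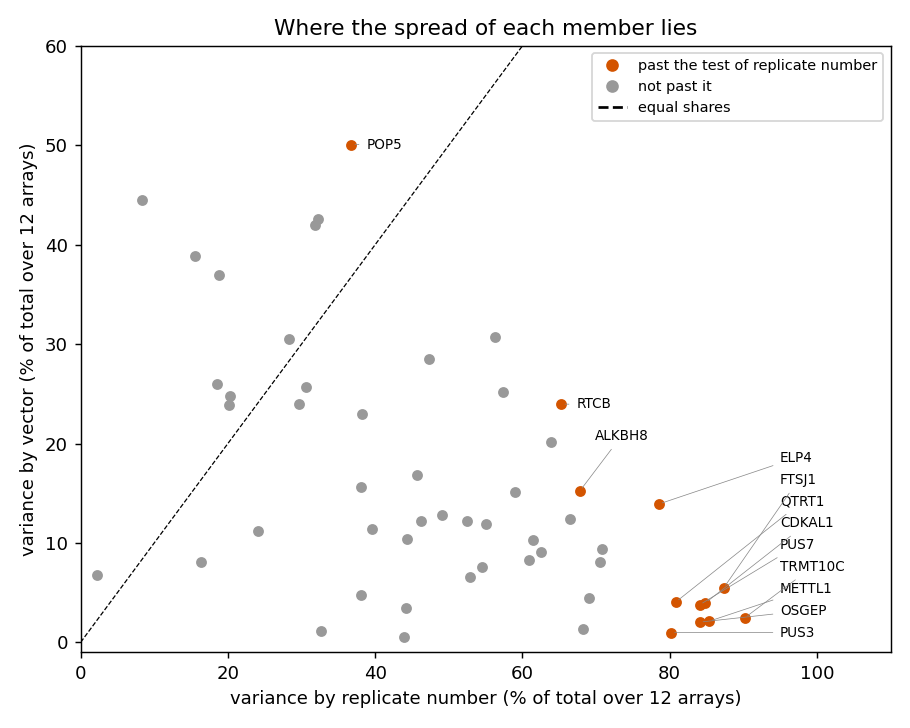
Share of each member's variance of log2 signal over 12 arrays that lies between replicate numbers (horizontal axis, percent) and between vectors (vertical axis, percent), 1 point per member. Coloured points are the 12 members past the limma test of replicate number; 43 of 54 points lie below the line of equal shares.

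In a limma F test of the replicate number with the vector in the model, added after the data had been seen, 12 of 54 members passed an adjusted p of 0.05, where 14% of all genes did, or 15.8% of all probe sets. They belong to several steps. CDKAL1, TRMT10C, QTRT1, ELP4 and FTSJ1, a methyltransferase of the anticodon loop, had the smallest adjusted p (6.87e-04, 0.00120, 0.00332, 0.00375 and 0.00479). METTL1, OSGEP, ALKBH8, RTCB, PUS3, PUS7 and POP5 followed (0.00987 to 0.0441). Without the arrays numbered 1 the members past the threshold were 2, CDKAL1 and METTL1, and without those numbered 2 they were 9, where 2.97% and 12.2% of all genes passed.

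Arrays numbered 1 stood apart most often, with 9 of 54 members above all or below all 9 other arrays, where 11.3% of all genes were. For numbers 2, 3 and 4 the members were 5, 0 and 1, where 3.97%, 1.41% and 1.29% of genes were. TRMT10C gave 7218, 6605 and 6688 in replicate 1 with the hairpin, tRNA and empty vectors, above all 9 other arrays, whose means were 5735, 5196 and 4928 for numbers 2, 3 and 4. FTSJ1 gave 3523, 3559 and 3612 in replicate 1 with the hairpin, tRNA and empty vectors, against means of 2966, 2641 and 2924 for the other numbers. PUS7, ADAT1, TSEN15 and TRMT11 were also higher in all 3 arrays numbered 1 than in all 9 others, although only PUS7 of these passed the limma test of number (adjusted p = 0.0952, 0.274 and 0.290 for the other 3). QTRT1 was lower there, at 405, 332 and 439.7, with means of 602, 587 and 806 for the other numbers, and so were OSGEP and TRIT1, the last not past the limma test (adjusted p = 0.137).

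Arrays numbered 2 held the lowest CDKAL1, at 279.9, 388 and 254 with the hairpin, tRNA and empty vectors, where numbers 1, 3 and 4 averaged 738, 641 and 581. PUS3 was lowest there too. METTL1 was highest in them, at 546, 569.7 and 489, where numbers 1, 3 and 4 averaged 399.7, 301 and 333, as were ELP3 and PRORP, which did not pass the limma test (adjusted p = 0.221 and 0.335). ELP4 was highest in the arrays numbered 4, at 1305, 1332 and 1326, with means of 854, 1039.9 and 1083 for numbers 1, 2 and 3. The numbers are names and have no order.

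The arrays of each number also differed in technical values. Bacillus RNAs are spiked in as labelling controls, and the mean signal of their 27 probe sets was 1726 to 1834 in the 3 arrays numbered 1, 331 to 389 in those numbered 2 and at most 26.1 in those numbered 3 and 4. The ratio of the GAPDH probe sets near the 3′ and the 5′ end was 1.47 to 1.67 in arrays numbered 1 and 1.18 to 1.39 in the others. The part of these values in the differences of the members by number was not tested. Within the levels of control RNA, POP5 stood at -0.16, -0.45 and -0.24 for the hairpin against the empty vector in numbers 1, 2 and 3 with 4.

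**Figure D4:**
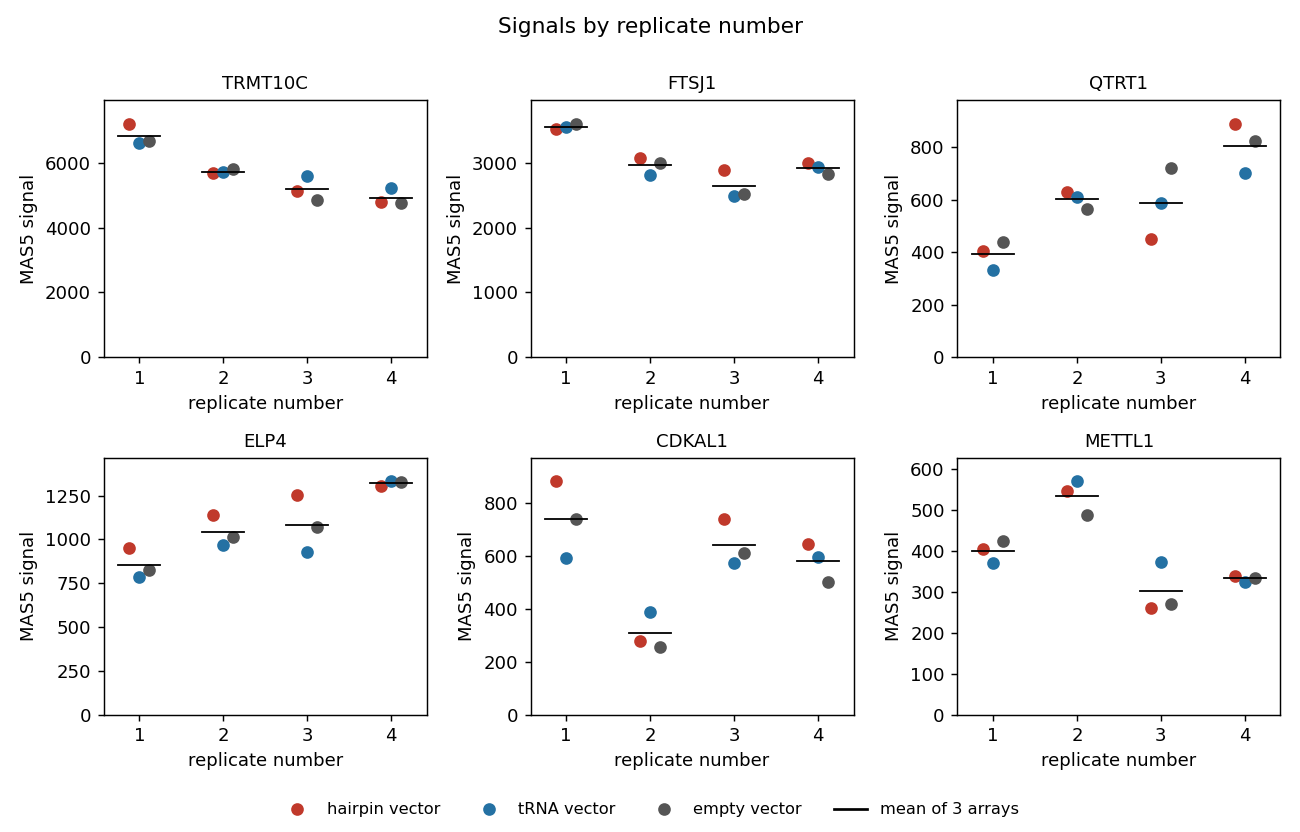
MAS5 signals of 6 members (vertical axes from 0) by replicate number, 1 point per vector, with a line at the mean of the 3 arrays. TRMT10C and FTSJ1 are highest and QTRT1 lowest in number 1, CDKAL1 is lowest and METTL1 highest in number 2, and ELP4 is highest in number 4.

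Promoter windows of 250 bases before the start of the gene were taken from a RefSeq table of GRCh38.p14 for the 47 of 57 members it holds. TATAAA, the TATA box, was in 0 of 47 windows, against 9.23% of all 15842 windows of protein-coding genes. CCAAT was in 13 (27.7%, against 34.5%), GGGCGG in 29 (61.7%, against 56.0%), and CCGGAAG, a core of ETS factor sites, in 11 (23.4%, against 11.8%). CACGTG, an E-box, was in those of POP7 and QTRT1 (4.26%, against 7.84%). Both strands were searched, and these matches are descriptions of letters. The windows had a median GC content of 61.2% and 20 CpG dinucleotides, against 62.4% and 17 over all windows.

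The windows of TRMT10C (chr3:101561618-101561867, plus strand) and QTRT1 (chr19:10701189-10701438, plus strand) are shown as those of a member highest and a member lowest in the arrays numbered 1. Capitals mark the motifs named above on either strand.
TRMT10C: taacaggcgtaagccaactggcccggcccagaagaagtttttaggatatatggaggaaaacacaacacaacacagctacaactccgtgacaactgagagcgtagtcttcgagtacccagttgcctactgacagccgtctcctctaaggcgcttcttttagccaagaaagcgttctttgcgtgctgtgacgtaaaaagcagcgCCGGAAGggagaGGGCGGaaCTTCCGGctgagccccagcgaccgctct
QTRT1: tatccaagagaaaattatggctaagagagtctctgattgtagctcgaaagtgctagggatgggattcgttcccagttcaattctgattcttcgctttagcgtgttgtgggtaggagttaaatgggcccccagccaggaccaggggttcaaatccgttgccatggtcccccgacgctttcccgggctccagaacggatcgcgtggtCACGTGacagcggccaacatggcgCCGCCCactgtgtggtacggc
The window of TRMT10C holds CCGGAAG on both strands beside a GC box. That of QTRT1 holds CACGTG and, on the reverse strand, a GC box, and no CCGGAAG.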

How the data were processed

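The authors deposited linear MAS5 intensities for 54675 probe sets on each array, per the submitters' processing notes and the file headers; no version, detection calls or genome build are given in the sources used here. Biotin-labelled RNA had been made from 12 micrograms of total RNA per sample, per the labels' protocols. Each array's 2% trimmed mean was 500.1, so arrays had been scaled to a common level.

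Symbols came from the platform annotation, checked by gene identifier against RefSeq (GRCh38.p14), which changed 0. Of the probe sets, 41097 had 1 symbol, 1801 more than 1, and 11777 are unnamed here, 62 controls included. The log2 of each signal was used without an offset, and probe sets under the 40th percentile of mean log2 signal (a geometric mean of 43.3) were left out, leaving 32768. A mean for each of 3 groups was fitted to the 12 arrays with limma 3.58.1 (lmFit, eBayes with trend) in R 4.3.3, with Benjamini-Hochberg adjustment over the tested probe sets, two-sided, at 0.05. For single values all 70 splits of the 8 arrays compared were enumerated (exact permutation test) in Python 3.11.15. The number of arrays limits the precision, and p-values rest on the spread between arrays of a group. That spread includes the differences by replicate number, in which cultures and technical values cannot be told apart. The limma fit was tested on simulated data drawn without differences by replicate number, so that test does not show how it fares with them.

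Genes named were, in each comparison, the 4 higher and 4 lower members with the smallest limma p, all members of steps with 3 or fewer, and members whose groups did not overlap; further names stand with replicate number or as ranges. Members and lists were chosen with earlier results of these data known. Same-number arrays deviated together from their group means. Their correlations over tested probe sets were 0.108 to 0.333 for the hairpin and empty vectors, 0.113 to 0.356 for the hairpin and tRNA vectors, and 0.0987 to 0.284 for the tRNA and empty vectors. Between arrays of different numbers these ran from -0.231 to 0.148, -0.205 to 0.103 and -0.187 to 0.121, highest between numbers 4 and 3. The fit with the replicate block is given beside a count that it moved. Same-number correlations over 0.1 were 4 of 4 for each comparison of the hairpin vector and 3 of 4 for the tRNA against the empty vector. Alternatives were quantile normalization, 2 other filters, an offset of 16, the mean over probe sets, blocks for replicate or control RNA level, a fit to 2 groups, no trend, and each array left out.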

Additional observations from a re-analysis of the deposited data

Results flagged for a closer look

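In 7 of 96 groups of 4 arrays tested, over 32 members, 1 array lay far from the other 3 by Dixon's test at 95%, where chance gives about 1 in 20 groups. Hairpin replicate 1 was the odd array in 4 of them. It held the highest ALKBH8 of its group, at 1041, where the next was 638, the highest HSD17B10, at 6601, next to 5533, the highest TRMT6, at 2648, next to 2132, and the lowest OSGEP, at 936, next to 1251. Replicate 1 also held the highest ALKBH8 and the lowest OSGEP in the tRNA and the empty group. RNH1, the inhibitor of angiogenin, was highest in hairpin replicate 2, at 1880.0, next to 1619.6. CDKAL1 was lowest in tRNA replicate 2, at 388, next to 572, and arrays numbered 2 were the lowest for this gene with every vector. TSEN34 was highest in tRNA replicate 4, at 2669, next to 2306, and it is 1 of the 2 members whose tRNA and empty arrays did not overlap.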

How the results depend on the processing

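No named member passed an adjusted p of 0.05 under any of 9 alternatives or with any of the 12 arrays left out, and 845 of 878 log2 fold changes under them kept their direction while 33 turned. The replicate block moved the members under an unadjusted p of 0.05 to 2, 3 and 4 for the hairpin against the empty, the tRNA against the empty and the hairpin against the tRNA vector, from 1, 0 and 1. The 3 in the middle comparison, RNH1, ALKBH8 and TRMT5, compare with 9.12% of all genes; there 3 of 4 same-number correlations were over 0.1. That block gave 6 probe sets past adjustment for the hairpin against the tRNA vector, with 0 of the 54 members past it. A block for control RNA level gave 3, 4 and 8 probe sets past adjustment, with 0 members among them. With it 2, 3 and 4 members were under an unadjusted p of 0.05. The shares of all genes with this block, without the intensity trend and with the mean over probe sets are not given here. Without the intensity trend the count for the hairpin against the empty vector was 0. With the mean over probe sets the other 2 counts were 1 and 2, and signs turned for the hairpin against the empty vector in CTU2 (-0.43), ELAC1 (0.046) and RNH1 (-0.17), for the tRNA against the empty vector in RNH1 (-0.074), ELAC1 (0.15), TRNT1 (0.086) and XPOT (-0.059), and for the hairpin against the tRNA vector in TRMT6 (-0.065). Quantile normalization turned XPOT (-0.026) for the tRNA against the empty vector. With single arrays left out the unadjusted counts ran from 0 to 2, 0 to 3 and 1 to 3, the probe sets past adjustment stayed at 0, and the member medians ran from -0.031 to 0.028, 0.0089 to 0.033 and -0.057 to -0.012, the first turning without hairpin replicate 1. Signs also turned, over the ranges given, for the hairpin against the empty vector in PRORP (-0.29 to 0.026), TRMT10C (-0.076 to 0.14), HSD17B10 (-0.058 to 0.056), TRNT1 (-0.019 to 0.13) and ANG (-0.13 to 0.27). They did for the tRNA against the empty vector in ELAC2 (-0.097 to 0.020), XPOT (-0.023 to 0.052), ELAC1 (-0.19 to 0.15), TRNT1 (-0.15 to 0.023) and THG1L (-0.086 to 0.030), and for the hairpin against the tRNA vector in TRMT10C (-0.15 to 0.049), ELAC2 (-0.060 to 0.0053) and PRORP (-0.071 to 0.35). POP5 kept its sign, with an unadjusted limma p under 0.05 in 3 of 8 such fits against the empty vector and 8 of 8 against the tRNA vector. Members differing by replicate number were 2 without the arrays numbered 1, where 2.97% of genes did, an alternative chosen after seeing the data. The causes were not tested. PRORP, ELAC1 and ANG had wide intervals, and no detection calls were used.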
